A study of Mus musculus with 32 samples.

Results

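Nuclear oxidative phosphorylation genes were taken as the protein-coding genes whose symbol begins with Nduf, Sdh, Uqcr or Atp5, or with Cox followed by a digit from 4 to 8. Of the 54446 genes in the count tables (21918 of them protein coding), 98 met this rule. They carry 97 symbols, because 2 gene identifiers share the symbol Atp5o. Another 13 genes with a matching symbol were pseudogenes or other types and were left out. Grouped by symbol, with assembly factors set apart by known role, 38 genes belonged to complex I and 8 to its assembly factors, 4 to complex II and 4 to its assembly factors, 8 to complex III, 18 to complex IV and 18 to complex V. The rule itself uses no measured value.

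Oxidative phosphorylation takes place in the inner membrane of mitochondria. Complex I (NADH dehydrogenase) and complex II (succinate dehydrogenase) pass electrons to ubiquinone, complex III (the cytochrome bc1 complex) passes them to cytochrome c, and complex IV (cytochrome c oxidase) passes them to oxygen. Complexes I, III and IV pump protons as they do so, and complex V (ATP synthase) uses the proton gradient to make ATP. Most subunits are encoded in the nucleus, while a small core set of complexes I, III, IV and V is encoded by mitochondrial DNA. Several subunits have a second form that is used in muscle or under low oxygen. Hepatocytes are known to be rich in mitochondria.

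RNA was measured in 32 tumors that the mouse hepatocellular carcinoma line BNL-MEA formed in the liver of BALB/c mice. Regorafenib, which blocks the VEGF receptors and several other kinases, was given at a low dose of 5 mg/kg/day or a high dose of 20 mg/kg/day. Within the dose experiment 4 tumors had vehicle, 3 the low dose and 3 the high dose. In the DC-101 experiment 4 tumors had vehicle, 3 the low dose and 3 had 800 ug of DC-101, a rat antibody that blocks mouse VEGFR2, injected into the peritoneum. The anti-PD1 experiment had 4 groups of 3 tumors, given vehicle, the low dose, anti-PD1 (which blocks a checkpoint receptor of T cells), or regorafenib and anti-PD1 together. Every tumor came from a single cell line with no engineered allele named in the labels, and the age of the mice was not given in the sources used here. Whole tumor pieces were used, so that a lower share of a cell type cannot be told apart from less RNA per cell. The labels call the samples replicates without saying more, so that p-values measure the spread between these samples.

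Library totals were from 16767130 to 27693689 counts. Of the 98 members, 94 passed the filter on low counts in the dose and anti-PD1 experiments and in the fit over all 3 experiments, and 93 in the DC-101 experiment. Levels are given as CPM, counts scaled by the library total after TMM correction, and changes as log2 changes with their standard error (SE) from edgeR. A member was called at an adjusted p under 0.05 over all genes (quasi-likelihood test, 2-sided, Benjamini-Hochberg). Untested were the second Atp5o identifier (0 counts in all libraries), Cox7b2, Cox8b and Cox8c, and in the DC-101 experiment also Cox6a2.

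Single libraries stood apart. High dose replicate 1 had 5.37% of its counts on mitochondrially encoded genes, where the other libraries of the dose experiment had 1.77 to 2.86%, and a TMM factor of 0.678. The summed level of 10 hepatocyte markers was 79900 CPM in it, against 17400 and 2940 CPM in high dose replicates 2 and 3, 2520, 2000 and 24100 CPM at the low dose and 1060 to 5760 CPM in vehicle. Low dose replicate 3, the highest of its group, also had the highest low dose levels of Sdha, Ndufv3 and Atp5s. None of the 10 hepatocyte markers was at 0 in any of the 32 libraries. In the anti-PD1 experiment, low dose replicate 2 and vehicle replicate 2 had only 0.312% and 0.260% of counts on mitochondrially encoded genes, while vehicle replicate 3 had 1.90%. Values that move with these libraries are also given without them where that changes a call, turns the sign of a median or shifts a named member strongly. For the members at the high dose these values stand in 1 place, after the complexes.

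Upstream DNA of the members is shown because they are often described as sharing binding sites for a few transcription factors. Of the 97 symbols, 78 had a promoter window in RefSeq (GRCm38.p6). The letters searched on both strands were CGCATGCG for the NRF1 core, CCGGAAGT for GABP, AAGATGGC for YY1 and ACGTG for the HIF core. None of these is contained in another. In the 250 bases before the start, the NRF1 letters were present in 8 of 78 members (10.3%) and in 406 of 17491 genes (2.32%). GABP letters were present in 3.85% of members and 4.26% of genes, and the HIF core in 19.2% and 20.0%. The YY1 letters were present in 1.28% of members and 1.77% of genes upstream, and in 12.8% and 3.57% when 50 bases after the start were added. A match is a string of letters and not a measured site. The windows below are those of Ndufv3, which was called at the high dose, and of Sdha, which is followed through most comparisons. The others are those of 2 members with the NRF1 letters. No window was at hand for Ndufa4l2, Cox4i2, Cox4i1 or Atp5s.
Ndufv3, chr17:31519865-31520114 (plus strand), no match: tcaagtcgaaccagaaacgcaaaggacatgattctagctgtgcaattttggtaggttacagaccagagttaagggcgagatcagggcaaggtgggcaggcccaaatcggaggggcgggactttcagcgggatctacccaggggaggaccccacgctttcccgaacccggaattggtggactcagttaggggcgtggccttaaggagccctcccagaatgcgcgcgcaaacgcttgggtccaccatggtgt
Sdha, chr13:74350241-74350490 (minus strand), HIF core in capitals: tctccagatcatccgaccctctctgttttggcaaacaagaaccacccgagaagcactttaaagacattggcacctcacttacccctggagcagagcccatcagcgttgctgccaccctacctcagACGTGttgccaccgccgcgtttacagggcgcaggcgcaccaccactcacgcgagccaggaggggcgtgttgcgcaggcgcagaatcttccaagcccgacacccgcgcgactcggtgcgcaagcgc
Cox6a1, chr5:115348959-115349208 (minus strand), NRF1 core in capitals: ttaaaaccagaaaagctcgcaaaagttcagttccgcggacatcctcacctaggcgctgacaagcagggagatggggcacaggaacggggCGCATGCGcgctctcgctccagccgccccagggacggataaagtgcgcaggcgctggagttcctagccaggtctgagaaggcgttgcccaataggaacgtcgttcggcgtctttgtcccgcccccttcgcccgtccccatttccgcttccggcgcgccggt
Atp5k, chr5:108434400-108434649 (minus strand), NRF1 core in capitals: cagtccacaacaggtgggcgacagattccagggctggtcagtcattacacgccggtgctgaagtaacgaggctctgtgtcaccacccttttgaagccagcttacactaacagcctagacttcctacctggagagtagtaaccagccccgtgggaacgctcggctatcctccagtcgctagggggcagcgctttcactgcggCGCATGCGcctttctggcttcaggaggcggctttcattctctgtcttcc

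In vehicle tumors the complexes were expressed at similar levels per length and the assembly factors at lower ones. The median level over the 11 vehicle libraries, in CPM per kb of exon, was 39.8 over complex I genes, 42.7 over complex II, 56.6 over complex III, 44.5 over complex IV and 58 over complex V. It was 7.1 over complex I assembly factors and 5.06 over those of complex II. The highest members were Atp5b, the catalytic beta subunit of ATP synthase (329 CPM per kb, 169 to 408 over libraries), Cox8a (266, from 186 to 428) and Cox6b1 (237, from 198 to 498), both small subunits of cytochrome c oxidase. Their ranges over the libraries overlapped, and their order was not compared within each library. The lowest members that were tested were Cox6a2, the heart and muscle form of Cox6a1 (0.365 CPM per kb), Cox6b2, the testis form of Cox6b1 (0.635), and Atp5l, a membrane subunit of ATP synthase (0.699, from 0.33 to 14.2 over libraries), whose low rank came from the DC-101 and anti-PD1 experiments and not from the dose experiment. Other tissue forms were also low. Cox4i2, a form of the subunit Cox4i1 that is used in lung and under low oxygen, was at 0.996 CPM per kb, where Cox4i1 was at 172. Cox7a1, the heart and muscle form of Cox7a2, was at 1.31. Ndufa4l2, a relative of Ndufa4 that is induced by low oxygen, was at 5.38 where Ndufa4 was at 96.5. The muscle form Cox8b was detected in 6 of 32 libraries and Cox8c in 1, with 2 counts.

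**Figure D1:**
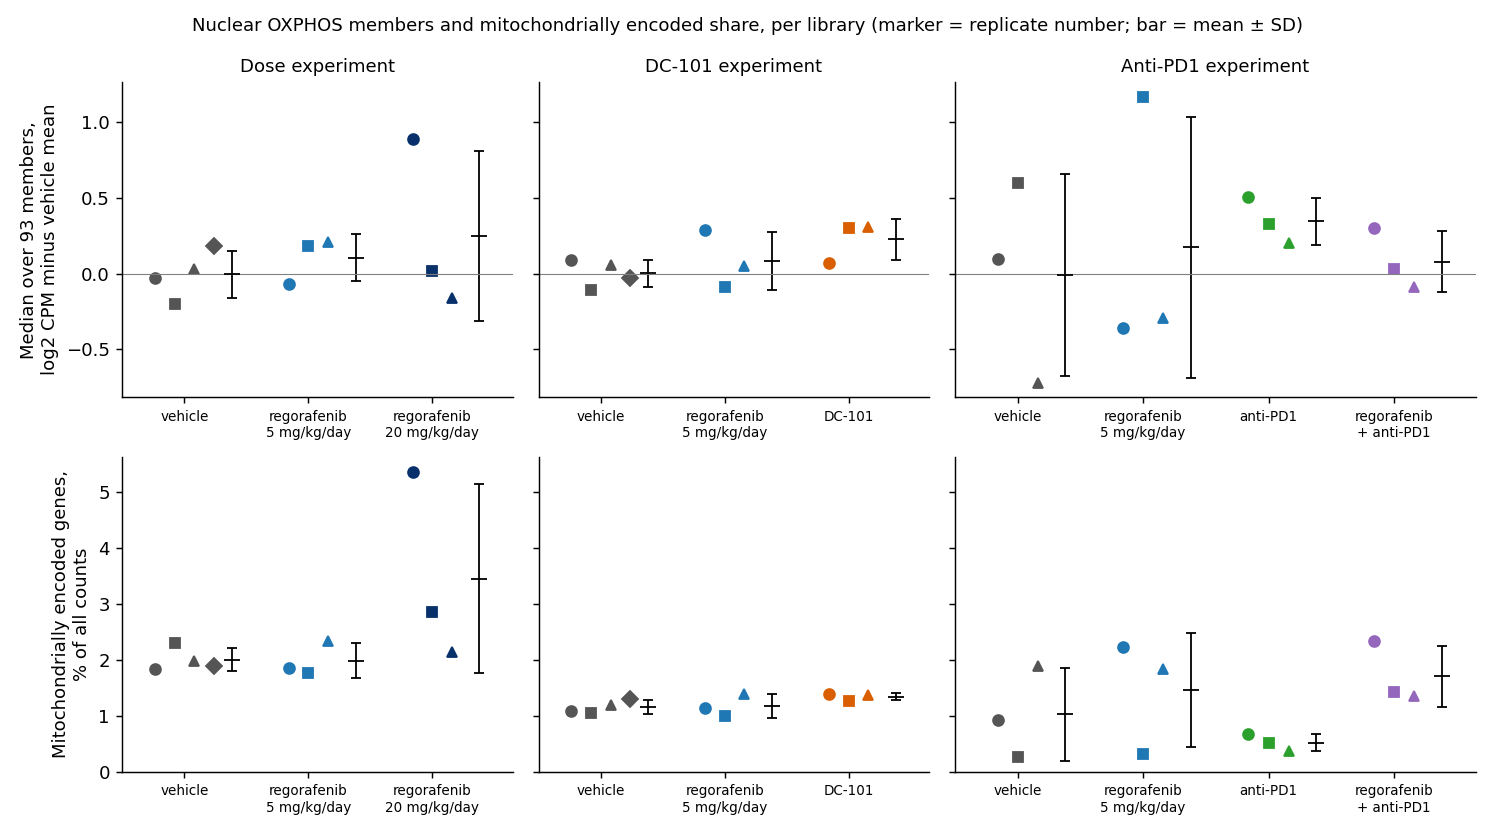
Each point is 1 library. The upper axis shows the median over 93 members of the log2 CPM minus the vehicle mean of the same experiment, and the lower axis the percent of counts on mitochondrially encoded genes. High dose replicate 1 (0.89) and, in the anti-PD1 experiment, low dose replicate 2 (1.17) have the highest medians of their experiments, at 5.37% and 0.312% of counts on mitochondrially encoded genes.

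The members varied together from library to library, most of all in the anti-PD1 experiment. The median over 93 members of the log2 difference from the vehicle mean was -0.03, -0.20, 0.03 and 0.18 in the vehicle libraries of the dose experiment and 0.09, -0.11, 0.06 and -0.03 in those of the DC-101 experiment. In the vehicle libraries of the anti-PD1 experiment it was 0.10, 0.60 and -0.72. The median SD of a member between vehicle libraries was 0.18 in the dose experiment, where that of genes of like level (log2 CPM of 4 to 9) was 0.17. It was 0.14 against 0.16 in the DC-101 experiment. In the anti-PD1 experiment members of that level had a median SD of 0.69 and genes of that level one of 0.43.

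**Figure D2:**
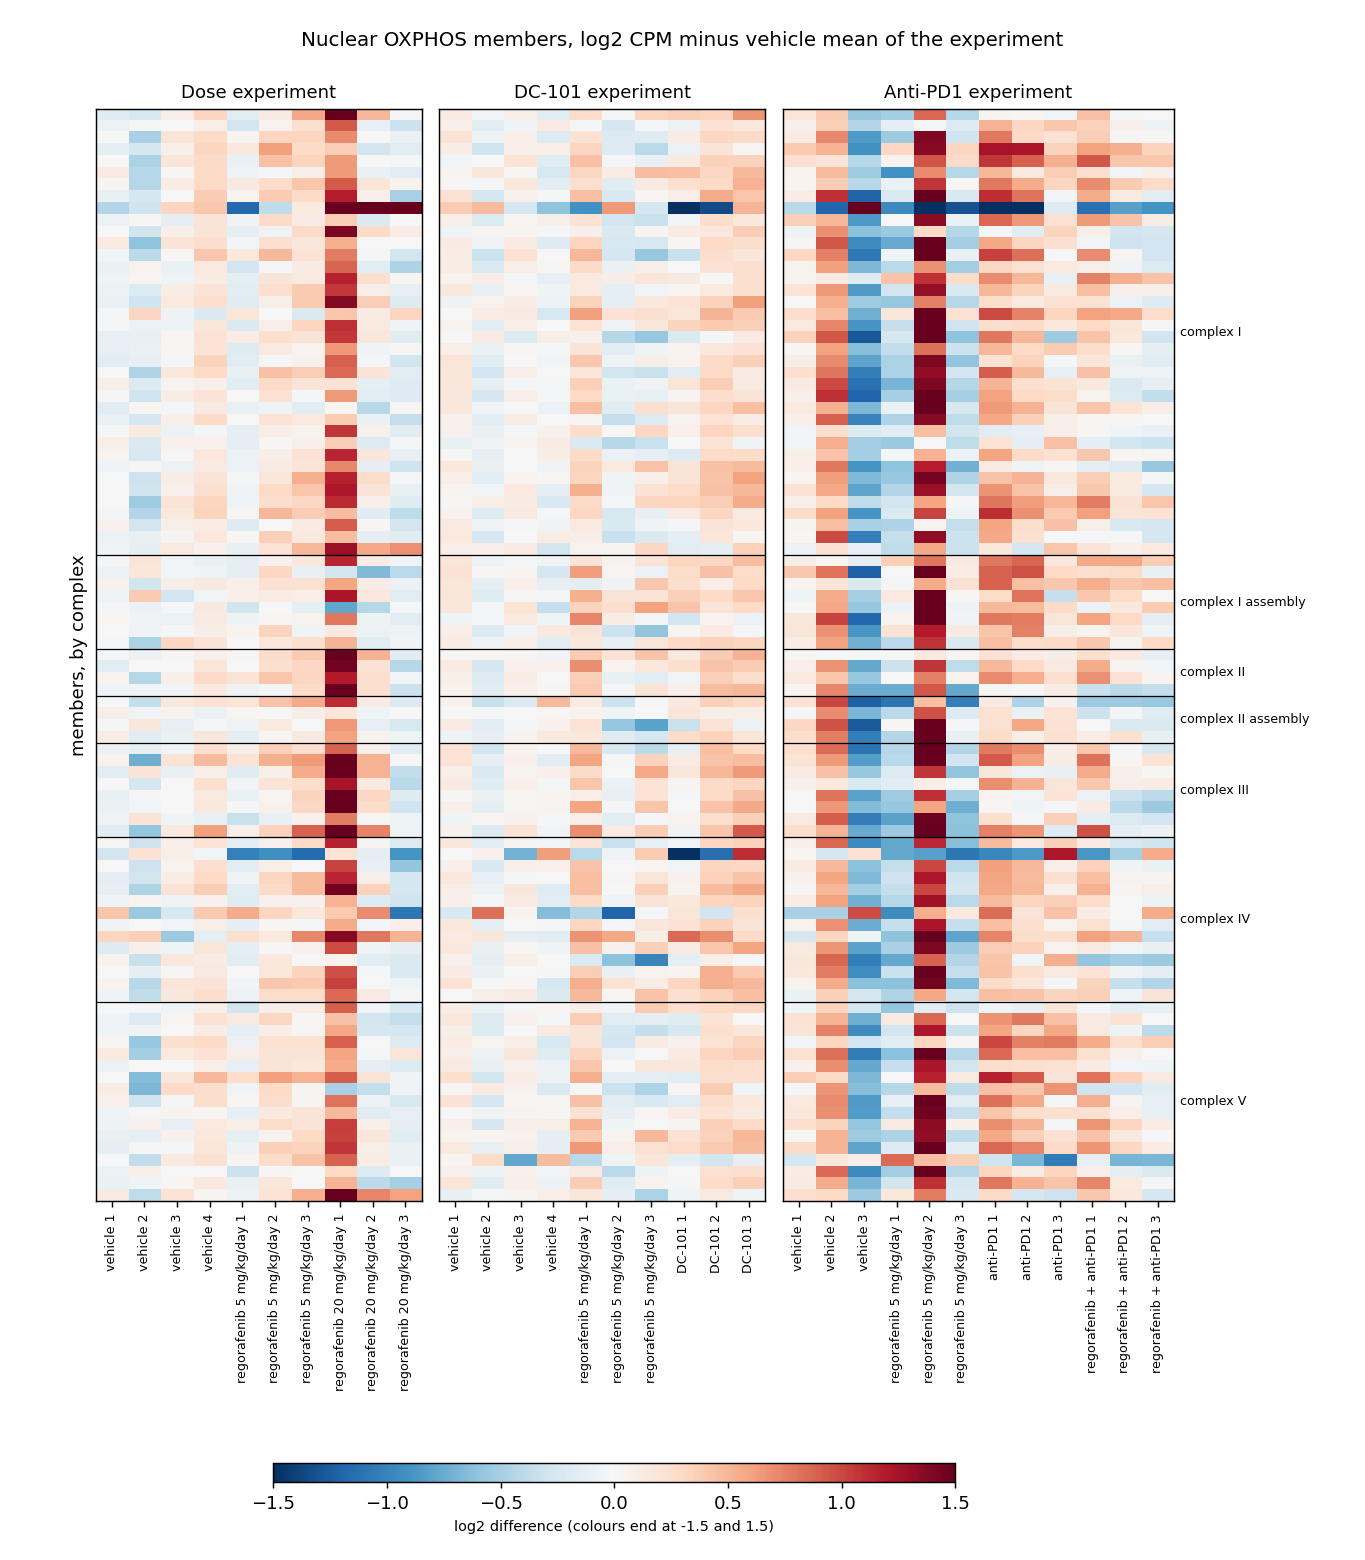
Rows are 93 members in the order of the complexes and columns are the 32 libraries by experiment and group. Color gives log2 CPM minus the vehicle mean of the experiment, and the scale ends at 1.5 in both directions. High dose replicate 1 is shifted upward over most rows. In the anti-PD1 experiment low dose replicate 2 is shifted upward and vehicle replicate 3 downward.

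The dose experiment asked how the high dose differs from vehicle. Against vehicle, 3 of 94 members rose and none fell (edgeR), where 15.6% of all genes were called (8.8% higher). They were Ndufa4l2, Ndufv3 and Atp5s. At an unadjusted p under 0.05 there were 9 higher and 1 lower members, where 40.1% of all genes passed. The log2 change was above 0 in 87 of 94 members, with a median of 0.34, while that of all genes was 0.02. DESeq2 called 4 members (31.9% of all genes) and limma-voom 2 (8.06%). With only the high dose and vehicle libraries in the fit, or without any 1 of the 4 vehicle libraries, edgeR called 0 members.

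Ndufa4l2 (ENSMUSG00000040280.10, GRCm38 chr10:127514967-127517154, plus strand) is known as a target of hypoxia-inducible factor that lowers complex I activity. It was at 2.93, 3.24, 5.01 and 5.30 CPM in vehicle, at 1.72, 3.04 and 4.43 CPM at the low dose, and at 14.9, 15.1 and 13.6 CPM at the high dose. All 3 high dose libraries lay above all others of the experiment, at nearly the same level, although the median of the members against the vehicle mean was 0.89, 0.02 and -0.16 in them. The log2 change against vehicle was 1.84 (SE 0.34, edgeR adjusted p = 0.0265), and against the low dose it was 2.30 (SE 0.38, edgeR adjusted p = 0.0184). Without high dose replicate 1 it was 1.81 (SE 0.36, edgeR adjusted p = 0.0325). The call against vehicle was lost when any 1 vehicle library was left out (log2 change 1.70 to 1.99, edgeR adjusted p from 0.0658 to 0.079). No stretch of 50 bases in its exons was shared with another gene. Pericytes also express this gene, and the summed level of 10 pericyte and smooth muscle markers was 685 to 914 CPM in vehicle and 606 to 1110 CPM at the high dose. Of these markers 1 was called, Rgs5, at 2.37 (edgeR adjusted p = 0.0399). Pdgfrb was lower in every high dose library (94.6, 186 and 226 CPM) than in vehicle (239 to 310 CPM). Without high dose replicate 1 the median of the 10 markers was 0.45, with 6 above 0. Their part in the result was not tested.

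Ndufv3 (ENSMUSG00000024038.16, chr17:31520115-31531331, plus strand) encodes the small subunit of the flavoprotein part of complex I. It was at 41.3, 39.6, 47.3 and 45.4 CPM in vehicle, at 40.1, 49.8 and 60.7 CPM at the low dose and at 106, 64.4 and 69.5 CPM at the high dose. The high dose libraries were again above all others, with replicate 1 the highest. The log2 change was 0.91 (SE 0.21, edgeR adjusted p = 0.0362), and 0.64 (SE 0.15, edgeR adjusted p = 0.0449) without high dose replicate 1. The call was lost in 6 of 10 fits that left out 1 library, those without any 1 vehicle library and without low dose replicate 1 or 2 (edgeR adjusted p up to 0.0953).

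Atp5s (ENSMUSG00000054894.6, chr12:69724950-69744660, plus strand) encodes factor B, which is needed for coupling in ATP synthase. Its levels were 3.61, 2.49, 3.77 and 3.36 CPM in vehicle, 3.11, 3.77 and 4.79 CPM at the low dose and 11.2, 5.51 and 5.03 CPM at the high dose. The high dose libraries did not overlap the others, but replicate 1 was far above replicates 2 and 3. The log2 change was 1.17 (SE 0.34, edgeR adjusted p = 0.0483). Without high dose replicate 1 it was 0.69 (SE 0.25) and no longer called (edgeR adjusted p = 0.122), and of the 10 fits that left out 1 library only the one without high dose replicate 3 called it.

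**Figure D3:**
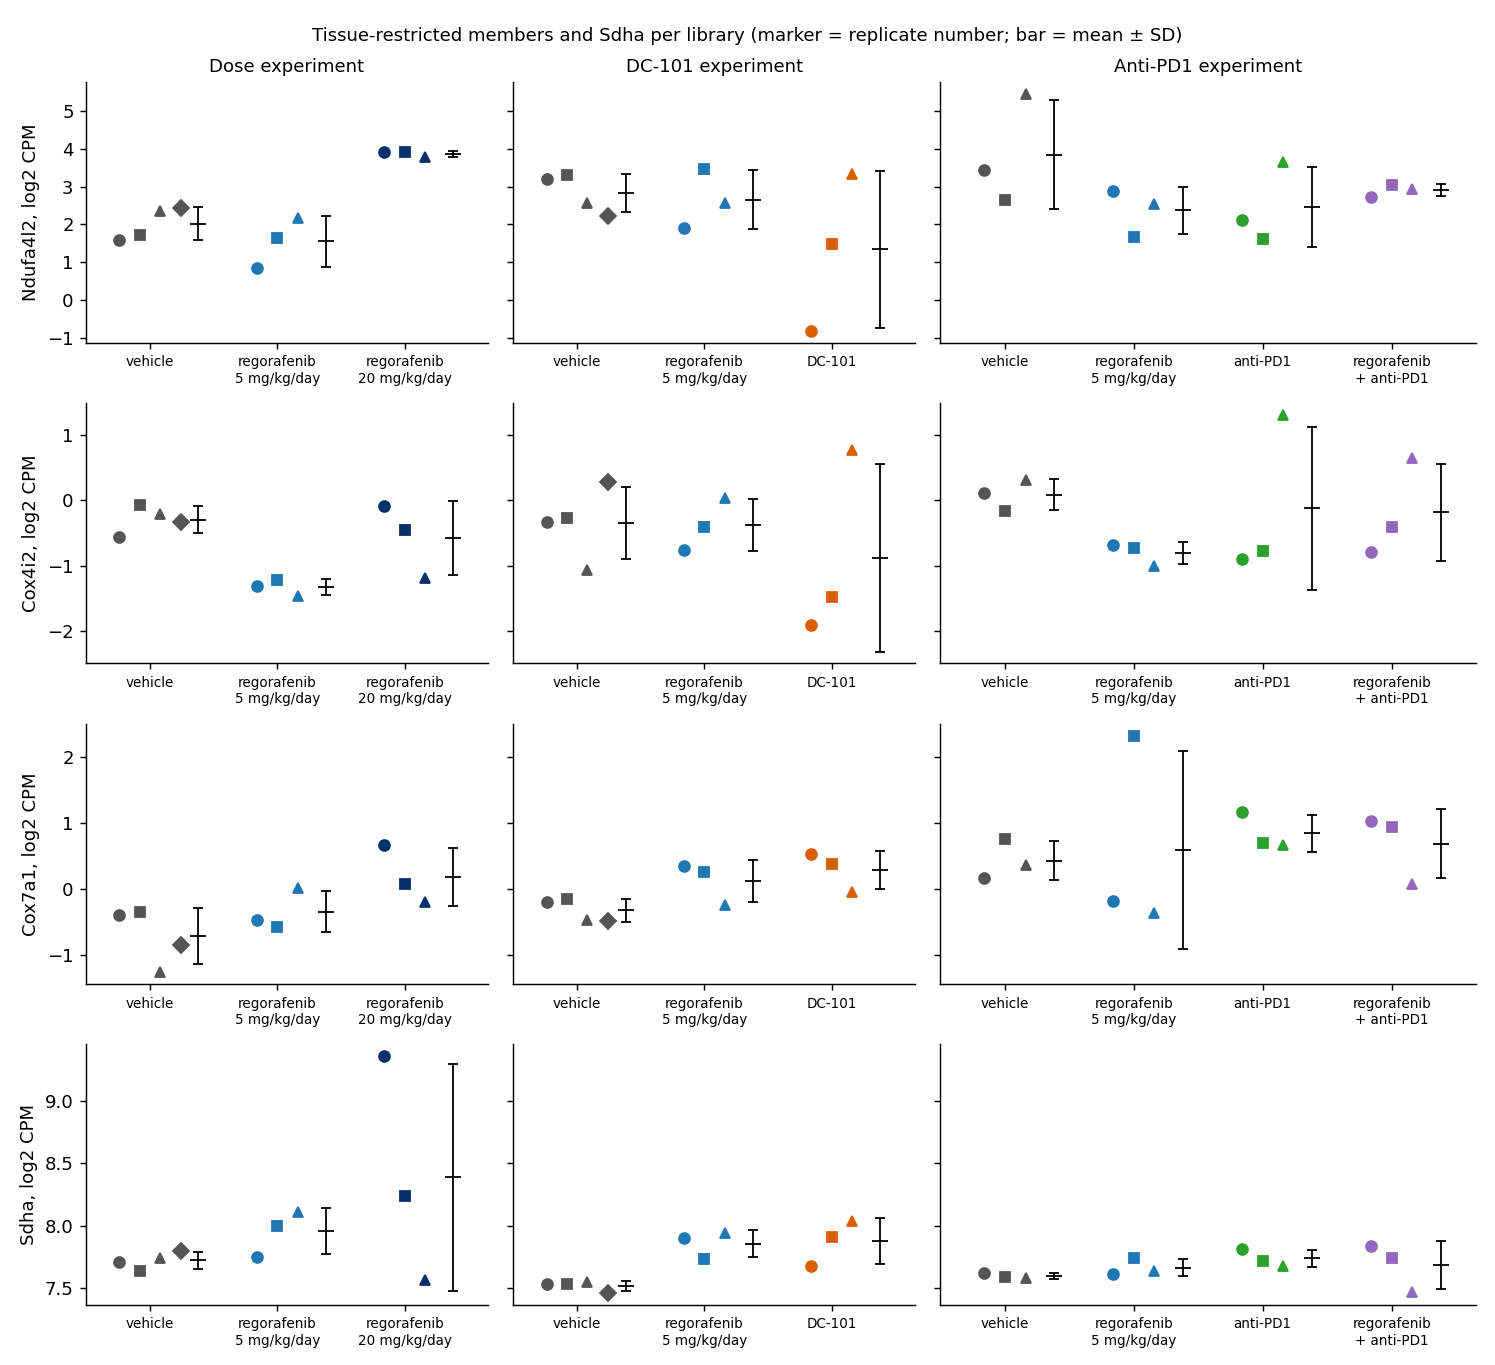
Log2 CPM of Ndufa4l2, Cox4i2, Cox7a1 and Sdha in each of the 32 libraries (points) by experiment and group, with the group mean as a bar. Ndufa4l2 lies at 13.6 to 15.1 CPM in the 3 high dose libraries and at 1.72 to 5.30 CPM in the other libraries of the dose experiment, while Sdha is high in high dose replicate 1 (655 CPM) and not in replicate 3 (189 CPM).

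Apart from Ndufa4l2 and Ndufv3, the upward shift at the high dose was mostly that of 1 library. In complex II, Sdha (ENSMUSG00000021577.14, chr13:74322254-74350280, minus strand), the flavoprotein subunit that oxidizes succinate, was at 209, 200, 213 and 223 CPM in vehicle and at 655, 302 and 189 CPM at the high dose. Its high dose replicate 3 was below every vehicle library, so that the groups overlapped (log2 change 0.90, SE 0.36, edgeR adjusted p = 0.0955). Sdhb, the iron-sulfur subunit, was at 74.7, 83.2, 83.1 and 94.9 CPM in vehicle and at 227, 96.9 and 62.0 CPM at the high dose. Sdhd, a membrane anchor, was at 92.9 to 108 CPM in vehicle and at 273, 116 and 77.5 CPM. The order of the high dose libraries was the same for all 3 subunits, and replicate 3 lay below the vehicle range each time. 

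Complex III followed the same order. Uqcrfs1, the Rieske iron-sulfur protein, was at 78.6 to 94.5 CPM in vehicle and from 68.8 CPM (replicate 3) to 251 CPM (replicate 1) at the high dose (log2 change 0.77, SE 0.38, edgeR adjusted p = 0.158). Uqcrc2, a core protein, was at 121 to 144 CPM in vehicle and at 405, 164 and 115 CPM (0.84, SE 0.38, edgeR adjusted p = 0.131). Uqcrc1, the other core protein, was at 121 to 170 CPM and at 340, 159 and 109 CPM. The largest log2 change of the complex was that of Uqcrq, a small subunit, at 1.26 (SE 0.51, edgeR adjusted p = 0.0971), from 41.1 to 94.4 CPM in vehicle to between 58.3 CPM (replicate 3) and 286 CPM (replicate 1). Uqcrq was picked here after its values were seen. In none of these 4 genes did the high dose group separate from vehicle.

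In complex IV, Cox4i1 was at 244, 193, 254 and 277 CPM in vehicle and at 534, 248 and 209 CPM at the high dose (log2 change 0.49, SE 0.31, edgeR adjusted p = 0.267). Cox7a1 (ENSMUSG00000074218.3, chr7:30184144-30186078, plus strand) was at 0.680, 0.702, 0.336 and 0.475 CPM in vehicle and at 1.5, 0.979 and 0.793 CPM at the high dose. These groups did not overlap, at a low level, and the change was not called (1.02, SE 0.38, edgeR adjusted p = 0.0832). Cox6a1, the widely expressed form, was at 75.7 to 133 CPM in vehicle and at 282, 130 and 86.0 CPM (0.70, SE 0.38, edgeR adjusted p = 0.2). Cox8b had 4 and 20 counts in high dose replicates 1 and 2 and none in the other 8 libraries of the dose experiment, so that it could not be tested. Brown fat is another tissue known for Cox8b. Of its 3 markers, Ucp1 was at 0, 0.0363 and 0 CPM in the 3 high dose libraries and Cidea at 0.482, 0.471 and 0.793 CPM, while Elovl3, which liver also expresses, was at 365, 25.9 and 5.23 CPM, and their part was not tested.

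In complex V neither the beta nor the alpha subunit was called at the high dose, and no test compared the 2. Atp5b (ENSMUSG00000025393.12, chr10:128083273-128090391, plus strand) was at 1240, 1120, 1320 and 1500 CPM in vehicle, at 1410, 1600 and 1300 CPM at the low dose and at 1740, 1060 and 1000 CPM at the high dose. High dose replicate 1 was above and replicates 2 and 3 were below all vehicle libraries, with a log2 change of 0.00 (SE 0.23, edgeR adjusted p = 0.991). Atp5a1, the alpha subunit, was at 686 to 756 CPM in vehicle and at 1320, 688 and 605 CPM (0.33, SE 0.27, edgeR adjusted p = 0.383). Atp5o, which joins the stalk to the catalytic head, had a log2 change of -0.03.

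In complex I the core subunit Ndufs1, which takes electrons through iron-sulfur clusters, was at 83.2 to 97.7 CPM in vehicle and at 187, 92.2 and 79.4 CPM at the high dose (0.46, SE 0.28, edgeR adjusted p = 0.244). The log2 change of Ndufb8 was 0.00. Among assembly factors, Ndufaf1 was at 18.4 to 22.5 CPM and at 43.7, 21.3 and 19.3 CPM (0.54, SE 0.29, edgeR adjusted p = 0.194). Ndufaf2 was lower in all 3 high dose libraries (17.2, 13.2 and 15.7 CPM) than in vehicle (19.6 to 23.6 CPM), which was the reverse of most members, and its change was not called (-0.42, SE 0.19, edgeR adjusted p = 0.123). Ndufaf2 and Cox7a1 joined the 3 called genes as the members whose high dose and vehicle groups did not overlap, 4 above and 1 below of 94, where 11.9% and 16% of all genes did so.

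By complex, the median log2 change at the high dose was 0.31 for complex I, 0.20 for its assembly factors, 0.69 for complex II, 0.22 for its assembly factors, 0.81 for complex III, 0.39 for complex IV and 0.28 for complex V. High dose replicate 1 set the size of these medians. Its medians against the vehicle mean were 1.60 for complex III and 1.47 for complex II, and 0.88, 0.97 and 0.82 for complexes I, IV and V. In replicate 2 complexes II and III were at 0.25 and 0.30, and in replicate 3 at -0.24 and -0.18. Without replicate 1 the median over the 94 members was -0.04 with 36 of them above 0, and the complexes were between -0.10 and 0.06, with complexes III (0.06) and II (0.05) still the highest. The named members above moved with it. Without replicate 1 the log2 changes were 0.22 for Sdha, -0.07 for Sdhb, 0.00 for Sdhd, 0.02 for Uqcrfs1, 0.09 for Uqcrc2, -0.10 for Uqcrc1 and 0.34 for Uqcrq. They were -0.07 for Cox4i1, 0.05 for Cox6a1, 0.70 for Cox7a1, -0.04 for Ndufs1, 0.04 for Ndufaf1, -0.52 for Ndufaf2, -0.15 for Ndufb8, -0.31 for Atp5b, -0.12 for Atp5a1 and -0.44 for Atp5o. None of these was called by edgeR in that fit. That fit called 2 members (Ndufa4l2 and Ndufv3), where 5.65% of all genes were called. Without replicate 3 there were 24 members called, 23 higher and 1 lower, where 41.1% of all genes were called. These 24 included 4 of 4 in complex II, 6 of 8 in complex III and 10 of 38 in complex I, and the lower one was the assembly factor Ndufaf5 (-0.60).

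Hepatocyte markers and mitochondrially encoded genes moved with replicate 1. At the high dose the 10 hepatocyte markers had a median log2 change of 4.32, all 10 above 0 and 2 called (Hpd and Cyp2e1). Without replicate 1 their median was 2.08, still with all 10 above 0. Among markers of other cells, 5 of 6 macrophage markers were called lower (median -1.25) and 3 of 6 T cell markers higher (median 1.73). Of 6 endothelial markers 1 was called lower (median -0.48). Over all genes 2582 of 16525 were called. Of 13 mitochondrially encoded genes 10 were tested, 0 were called by edgeR (6 unadjusted) and their median was 0.98. Without replicate 1 the median was 0.29, with 7 of 10 above 0. In all libraries mt-Nd3, mt-Nd4l, mt-Co2, mt-Co3, mt-Atp6 and mt-Atp8 were at 1.31 CPM or less. By contrast mt-Co1 was at 1090 CPM or more, so that the share of counts on mitochondrially encoded genes rests on the others. With the hepatocyte marker score as a covariate no member was called and the median member change was -0.15. With the mitochondrially encoded score as a covariate 1 member was called and the median was -0.09. With the total count in place of TMM the median of all genes went from 0.02 to -0.13 and that of the members from 0.34 to 0.08, and 2 members were called.

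High against low dose regorafenib called only Ndufa4l2 among 94 members, where 4.22% of all genes were called. At an unadjusted p under 0.05 there were 5 higher and 0 lower members (29.3% of all genes), and the median was 0.28 against 0.07 for all genes. Without high dose replicate 1 the median was -0.14. The call of Ndufa4l2 was lost without low dose replicate 1 or 2 (log2 change 2.0 and 2.28, edgeR adjusted p up to 0.0931), and without high dose replicate 3 there were 9 members called, where 4488 genes were called in all. Ndufv3 was second, at 0.73 (SE 0.23, edgeR adjusted p = 0.0926). Cox4i2 was at 0.322, 0.350 and 0.282 CPM at the low dose and at 0.857, 0.653 and 0.357 CPM at the high dose, which did not overlap (1.0, SE 0.40, edgeR adjusted p = 0.142), and it was called without high dose replicate 3 (1.25, edgeR adjusted p = 0.0402). The groups did not overlap for 4 members above and 2 below, where 10.2% and 18.5% of all genes did so. This comparison and that with vehicle share the high dose libraries.

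Low dose regorafenib was compared with vehicle in all 3 experiments, to ask what it changes in common. In the fit over 20 libraries 0 of 94 members were called by edgeR, where 1.52% of all genes were called. At an unadjusted p under 0.05 there were 1 higher and 2 lower members (15.6% of all genes). DESeq2 called 2 members (6.16% of all genes) and limma-voom 0 (1.79%). The log2 change was above 0 in 82 of 94 members, with a median of 0.15 against 0.02 for all genes. Without low dose replicate 2 from the anti-PD1 experiment the median was -0.05, and without vehicle replicate 3 from there it was 0.06. In the full fit the complexes lay between 0.07 (complex II assembly) and 0.24 (complex I assembly). Whether the change differed between experiments was tested as well. By edgeR 0 of 94 members were called, adjusted or unadjusted, where 0% of all genes were called and 9.83% passed unadjusted, and the smallest adjusted p was 0.559 for Ndufab1.

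Cox4i2 (ENSMUSG00000009876.13, chr2:152754173-152765037, plus strand) had the smallest p of the fit over 3 experiments. In the dose experiment it was at 0.595, 0.864, 0.785 and 0.712 CPM in vehicle and 0.322, 0.350 and 0.282 CPM at the low dose, without overlap. In the anti-PD1 experiment it was at 0.993, 0.798 and 1.15 CPM and 0.529, 0.512 and 0.410 CPM, again without overlap. In the DC-101 experiment it was at 0.7, 0.731, 0.387 and 1.12 CPM and 0.5, 0.663 and 0.93 CPM, and the groups overlapped. The log2 change over all 3 was -0.76 (SE 0.23, edgeR adjusted p = 0.0985). These levels rest on few counts, 14 to 21 in the vehicle and 7 to 10 in the low dose libraries of the dose experiment. DESeq2 called it (log2 change -0.76, DESeq2 adjusted p = 0.0372), and edgeR did so when vehicle replicate 3 from the DC-101 experiment was left out (-0.86, edgeR adjusted p = 0.0402). Cox4i2 is also known as a pericyte transcript. Of 10 pericyte and smooth muscle markers 9 were below 0 in this fit, with a median of -0.68, and 1 was called (Kcnj8, -1.78). Their summed level was 685 to 914 CPM in vehicle and 772 to 908 CPM at the low dose in the dose experiment, 771 to 1080 and 399 to 689 CPM in the DC-101 experiment, and 613 to 825 and 607 to 1160 CPM in the anti-PD1 experiment. Their part in the values of Cox4i2 was not tested.

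Sdha was above every vehicle library in every low dose library of the DC-101 experiment, at 184, 185, 188 and 176 CPM in vehicle and at 238, 212 and 246 CPM at the low dose. In the dose experiment it was at 216, 256 and 276 CPM against 200 to 223 CPM in vehicle, and in the anti-PD1 experiment at 195, 214 and 199 CPM against 191 to 197 CPM. The log2 change over the 3 experiments was 0.21 (SE 0.07, edgeR adjusted p = 0.142), and DESeq2 called it at the same size (DESeq2 adjusted p = 0.0113). Hepatocyte markers moved with it in the DC-101 experiment, where they summed to 6810, 1200 and 15200 CPM at the low dose and to 17.6 to 4180 CPM in vehicle. After adding the hepatocyte score the log2 change of Sdha was -0.06 in the dose experiment, 0.19 in each of the others and 0.16 over all 3. Ndufa4l2 had a log2 change below 0 at the low dose in each experiment (-0.46 in the dose, -0.10 in the DC-101 and -1.93 in the anti-PD1 experiment). Leaving out 1 library gave -0.62 to 0.20 for the second of these values, and the third was -0.65 without vehicle replicate 3. Over the 3 experiments it was -0.77 (SE 0.36, edgeR adjusted p = 0.311) and was not called. In the anti-PD1 experiment it was at 10.8, 6.19 and 43.4 CPM in vehicle, so that replicate 3 was far above the others, and at 7.33, 3.12 and 5.75 CPM at the low dose.

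Within single experiments the low dose called no member by edgeR. In the dose experiment 0% of all genes were called, 0 higher and 1 lower members passed unadjusted (4.94% of all genes), DESeq2 and limma-voom called 0 (0.514% and 0% of all genes), and the median was 0.08. Cox4i2 (-1.23, SE 0.38, edgeR adjusted p = 0.816) and Ndufa12, an accessory subunit of complex I (0.32, SE 0.22, edgeR adjusted p = 0.991), had the smallest p. Groups did not overlap for 0 members above and 1 below, where 7.86% and 5.91% of all genes did so.

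In the DC-101 experiment 0 of 93 members were called at the low dose by edgeR (0.0248% of all genes), 10 higher and 2 lower passed unadjusted (17.1% of all genes), and the median was 0.09 (-0.02 without low dose replicate 1 and 0.17 without replicate 2). DESeq2 called 3 (6.8% of all genes) and limma-voom 0 (0.0248%). Sdha had a log2 change of 0.33 (SE 0.10, edgeR adjusted p = 0.155). Cox7a2l (ENSMUSG00000024248.13, chr17:83501918-83517330, minus strand), which joins complexes III and IV into supercomplexes, was at 96.8 to 114 CPM in vehicle and at 92.1, 69.8 and 54.0 CPM. The low dose libraries were below all vehicle libraries (-0.58, SE 0.17, edgeR adjusted p = 0.159). Groups did not overlap for 4 members above and 2 below, where 6.98% and 9.42% of all genes did so.

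Within the anti-PD1 experiment 0 of 94 members were called at the low dose (edgeR, DESeq2 and limma-voom), where edgeR called 0%, DESeq2 2.62% and limma-voom 0% of all genes, and 1 higher and 1 lower passed unadjusted (11.8% of all genes). The median was 0.30 against 0.03 for all genes, and it was -0.49 without low dose replicate 2, 0.03 without vehicle replicate 3 and 0.66 without vehicle replicate 2. Ndufa4, which is grouped under complex I here by its symbol but is also known as a subunit of complex IV, was at 202, 400 and 81.0 CPM in vehicle and at 161, 847 and 159 CPM at the low dose. Ndufb8 was at 169, 306 and 71.4 CPM in vehicle and at 95.5, 408 and 116 CPM. In both genes low dose replicate 2 was the highest and vehicle replicate 3 the lowest library, and the groups overlapped. Ndufab1, the mitochondrial acyl carrier protein, was the only member at an unadjusted p under 0.05 in the higher direction (0.65, SE 0.29, edgeR adjusted p = 0.409), from 18.4, 19.4 and 15.7 CPM to 23.9, 37.9 and 21.5 CPM. Without low dose replicate 2 its log2 change was 0.32. The groups did not overlap for 3 members above and 1 below, where 6.81% and 7.35% of all genes did so. Other short transcripts moved with these libraries. The median over 252 other protein-coding genes with under 1000 bases of exon was 0.85 in low dose replicate 2 and -0.59 in vehicle replicate 3, and that over 78 cytosolic ribosomal protein genes was 0.78 and -0.80. Members with 3000 bases or more were at 1.09 and -0.59, and other genes of that length at -0.32 and 0.10. The part of gene length in the members' values was not tested.

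DC-101 was compared with vehicle to ask what blocking VEGFR2 alone changes. By edgeR 0 of 93 members were called, where 0% of all genes were called. At an unadjusted p under 0.05 there were 23 higher and 0 lower members, where 6.72% of all genes were higher and 13.2% passed in either direction. DESeq2 called 2, Sdha and Ndufb3 (2.31% of all genes), and limma-voom 0 (0% of all genes). The change was above 0 in 81 of 93 members with a median of 0.19, while that of all genes was -0.01. Leaving out 1 library gave medians from 0.16 to 0.29, the highest without DC-101 replicate 1. The DC-101 libraries were above all 4 vehicle libraries in 32 of 93 members and below them in 0, where 6.44% and 6.95% of all genes did so. Members move together between libraries, so that these counts are not independent.

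The members behind these counts came from every complex. Ndufb3 (ENSMUSG00000026032.8), an accessory subunit of complex I, was at 25.6, 22.1, 26.3 and 24.7 CPM in vehicle and at 31.1, 32.4 and 31.5 CPM with DC-101, with no overlap (0.33, SE 0.10, edgeR adjusted p = 0.318). Sdha was at 204, 240 and 263 CPM with DC-101, above the vehicle range of 176 to 188 CPM (0.33, SE 0.10, edgeR adjusted p = 0.311). Sdhb was at 70.0 to 90.1 CPM in vehicle and at 97.9 CPM or more in the 3 DC-101 libraries. In complex III all 8 members were above 0, with a median of 0.26, and Uqcrb, which was picked after its values were seen, was at 18.7 to 23.0 CPM in vehicle and at 24.5, 30.6 and 33.8 CPM. Cox8a was at 130 to 165 CPM in vehicle and at 179, 192 and 206 CPM. Cox7a1 was at 0.627 to 0.808 CPM in vehicle and at 1.35, 1.20 and 0.884 CPM. Ndufs1 was at 72.5 to 82.3 CPM in vehicle and at 82.8, 98.5 and 92.9 CPM, so that its DC-101 libraries began just above vehicle. Atp5a1 was at 649 to 744 CPM in vehicle and at 824, 855 and 862 CPM. Atp5b, at 1260 to 1600 CPM in vehicle and 1270, 1650 and 1430 CPM with DC-101, overlapped. Ndufa4l2 went the other way and was not called (-0.79, SE 0.81, edgeR adjusted p = 0.702). Leaving out 1 library gave -2.22 to -0.21 for it.

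By complex, the median change with DC-101 was 0.16 for complex I, 0.28 for its assembly factors, 0.32 for complex II, 0.15 for its assembly factors, 0.26 for complex III, 0.24 for complex IV and 0.14 for complex V. DC-101 replicate 1 was less shifted (library median 0.07) than replicates 2 and 3 (0.30 and 0.31), while the vehicle libraries were between -0.11 and 0.09. The summed hepatocyte markers were at 53.5, 16400 and 22400 CPM in the 3 DC-101 libraries and at 17.6 to 4180 CPM in vehicle, and their median change was 3.73. The members' median was 0.10 after adding the hepatocyte score as a covariate, and 0.06 after adding the short gene score. The 7 mitochondrially encoded genes tested were all above 0 with a median of 0.45. Comparisons of the low dose and of DC-101 with vehicle in this experiment share the vehicle libraries. In the low dose libraries the members' medians were 0.29, -0.09 and 0.05.

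Anti-PD1 alone called 0 of 94 members by edgeR, where 0% of all genes were called, with 4 higher and 1 lower unadjusted (13.7% of all genes). DESeq2 called 1 (3.7% of all genes) and limma-voom 0 (0%). The median was 0.25 against -0.06 for all genes, and it was -0.03 without vehicle replicate 3 and 0.59 without vehicle replicate 2. Atp5d, the delta subunit of ATP synthase, was at 169, 219 and 144 CPM in vehicle and at 348, 295 and 301 CPM with anti-PD1, without overlap (0.78, SE 0.23, edgeR adjusted p = 0.249), and was the member that DESeq2 called (0.79, DESeq2 adjusted p = 0.0311). Ndufa13, also known as Grim19, was at 129, 126 and 81.2 CPM in vehicle and at 230, 202 and 159 CPM, also without overlap (0.77, SE 0.30, edgeR adjusted p = 0.302). Ndufa4l2 was at 4.23, 3.00 and 12.5 CPM (-1.68, SE 0.72, edgeR adjusted p = 0.334), and without vehicle replicate 3 its change was -0.39 (edgeR adjusted p = 0.836). Groups did not overlap for 8 members above and 1 below, where 8.68% and 8.39% of all genes did so. The 7 mitochondrially encoded genes tested were all below 0 with a median of -0.92, the direction opposite to that of the members in this fit. The share of counts on mitochondrially encoded genes was 0.919, 0.26 and 1.9% in vehicle and 0.68, 0.518 and 0.37% with anti-PD1. Vehicle replicate 2 was thus below every anti-PD1 library and replicate 3 far above, so that the groups overlapped. The 10 hepatocyte markers were also all below 0, with a median of -2.81.

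Regorafenib plus anti-PD1 called 0 of 94 members (edgeR, DESeq2 and limma-voom), where edgeR called 0%, DESeq2 0.903% and limma-voom 0% of all genes, with 1 higher and 0 lower unadjusted (8.2% of all genes). The median was -0.03 against -0.05 for all genes, and 42 of 94 members were above 0. The median was -0.30 without vehicle replicate 3 and 0.29 without vehicle replicate 2. The member with the smallest p was Cox6a2 (ENSMUSG00000030785.8, chr7:128205435-128206387, minus strand), at 0.248, 0.2 and 0.256 CPM in vehicle and at 0.400, 0.584 and 0.923 CPM with the combination (1.37, SE 0.61, edgeR adjusted p = 0.589). The groups did not overlap, but both were near the limit of detection. Ndufa4l2 was second, at 6.48, 8.06 and 7.63 CPM (-1.51, SE 0.71, edgeR adjusted p = 0.619), and its log2 change was -0.22 without vehicle replicate 3. Groups did not overlap for 5 members above and 0 below, where 11.2% and 6.7% of all genes did so. The 3 comparisons of this experiment share the vehicle libraries.

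A panel of 21 members held subunits of each complex and the assembly factor Ndufaf1. By edgeR it had 0 calls in each of the 9 comparisons with a direction, and 0 to 5 at an unadjusted p under 0.05. Left out of it were Ndufa4l2, Cox4i2, Cox6a2, Cox6b2, Cox7a1 and Cox8b. Ndufa4l2 was called at the high dose, so that the 0 calls are partly set by this choice. The shares of all genes called are those given above, the largest being 2582 of 16525 genes for the high dose against vehicle. The panel's median log2 change was 0.46 for the high dose against vehicle, and -0.09 without high dose replicate 1, where 6 of the 21 were above 0. The low dose gave 0.05 beside the high dose, 0.15 beside DC-101, 0.19 beside anti-PD1 and 0.11 over all 3 experiments, for DC-101 0.22, for anti-PD1 0.11 and for the combination -0.12. 

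Of the genes that act beside the complexes, those of 3 lists had medians above 0 at the high dose, with DC-101 and at the low dose. At the high dose 0 of 24 assembly factors of complexes III and IV were called by edgeR (6 higher unadjusted, 20 above 0, median 0.30). Of 13 citric acid cycle genes 0 were called (3 unadjusted, median 0.36), and of cytochrome c and c1 0 of 2 (0 unadjusted, median 0.13). With DC-101 the assembly factors had a median of 0.20 with 20 of 24 above 0, the citric acid cycle genes one of 0.13 and cytochrome c and c1 one of 0.30. For the low dose over the 3 experiments the medians were 0.11, 0.03 and 0.31. The high dose medians rested on replicate 1, and without it they were 0.05 for the assembly factors, -0.15 for the citric acid cycle genes and -0.16 for cytochrome c and c1. With DC-101 and at the low dose edgeR called 0 genes of the 3 lists. The 4 genes that assemble or inhibit ATP synthase had a median of 0.00 at the high dose, and 1 of them, the inhibitor Atpif1, fell (log2 change -0.86). Without high dose replicate 1 their median was -0.21, with 0 of 4 above 0. Of 12 regulators of mitochondrial biogenesis 1 rose (Ppargc1a), with a median of 0.04. That median was -0.12 without high dose replicate 1, with 4 of 12 above 0.

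Member levels also differed between the experiments, which were normalized and tested apart. Vehicle log2 CPM in the dose experiment minus the mean of the other 2 experiments was 4.54 for Atp5l, which was at 60.9 to 145 CPM over the dose experiment and at 1.36 to 5.29 CPM over the other libraries. It was 1.72 for Ndufb4, 1.61 for Atp5g2, 1.27 for Ndufab1, 0.98 for Cox7c and 0.90 for Ndufs5. It was -1.61 for Ndufb2, -1.36 for Ndufb9 and -1.31 for Ndufa4l2. These genes were picked for that difference. The 6 members named with positive differences shared 7.1 to 38.3% of their 50-base exon stretches with other genes, among which each had at least 1 pseudogene. Of the 3 with negative differences, Ndufb9 shared 15.6%, Ndufb2 1.9% and Ndufa4l2 0%. Which strand was counted in each experiment is not given in the sources used here. The median difference was -0.22 for 59 members with no exon base shared with a gene on the opposite strand and -0.22 for 29 with 1 to 50% shared. Among 45 members with no 50-base stretch shared with another gene the median difference was -0.30 and 0 were above 0.5. Among 32 with up to 10% shared it was -0.18 with 2 above 0.5, and among 13 with more it was 0.54 with 7 above 0.5. Levels of these members are therefore uncertain, and the experiments are not compared for them beyond this description.

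**Figure D4:**
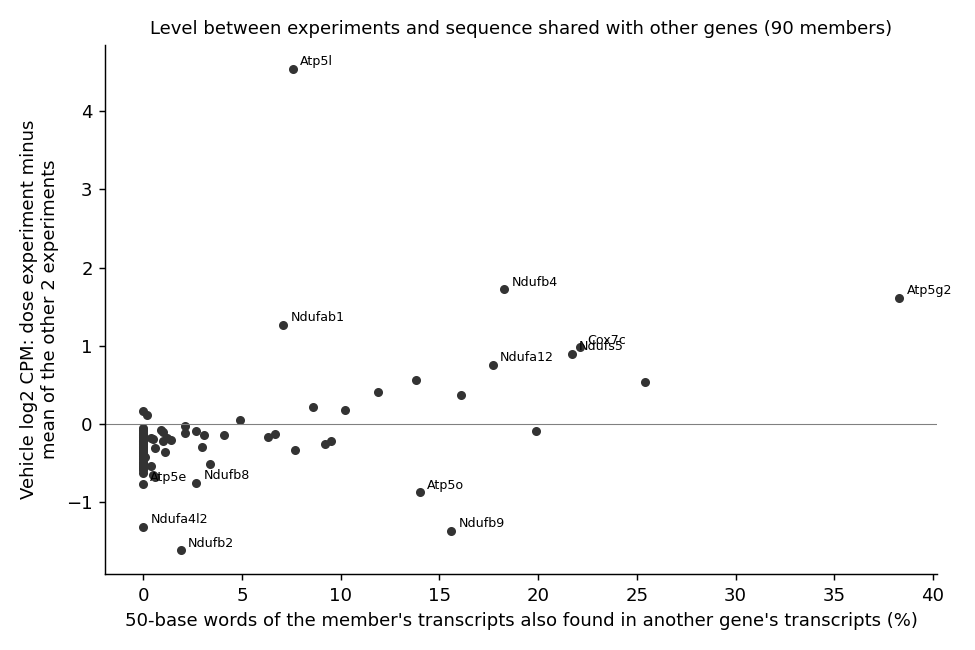
Each point is 1 of 90 members. The horizontal axis is the percent of its 50-base exon stretches that occur in another gene, and the vertical axis the vehicle log2 CPM of the dose experiment minus the mean of the other 2 experiments. Members without shared stretches reach at most 0.17, while 7 of the 13 members with over 10% shared lie above 0.5, and Atp5l lies at 4.54.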

How the data were processed

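Per the labels, total RNA of frozen tumor pieces was made into stranded mRNA libraries, while the study's methods also speak of fresh tumors for sequencing. Per the study's methods and notes, adapters were removed with cutadapt 2.4, reads were aligned to GRCm38 with STAR 2.7.2a, and STAR counted reads per Gencode M19 gene. The values deposited by the authors are raw counts per gene and library, and the strand column taken is not given in the sources used here. The authors' own TMM and limma results were not used. Gene types and coordinates came from Gencode M21 on the same build, which matched 54409 of 54446 identifiers (99.93%).

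Each experiment was fitted on its own with all of its groups in R 4.3.3 with edgeR 4.0.16 (filterByExpr with a minimum count of 10 and total of 15, TMM, robust quasi-likelihood F-test, Benjamini-Hochberg over all genes). A further fit took the low dose and vehicle libraries of all 3 experiments, with the experiment as a term. Log2 CPM used a prior count of 2. Alternatives were DESeq2 1.42.0, limma-voom (limma 3.58.1), 2 other scalings, no filter, only the groups compared, covariates, a replicate block and leaving out libraries. The covariates of mitochondrially encoded and of short genes were added after the data were seen. The code was tested on simulated data. No molecular identifiers were used, so that counts are not independent molecules. No pair of libraries in a group agreed within sampling noise (chi-square per degree of freedom of 12.9 to 834 over 36 pairs).

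Members, lists and tests were chosen with earlier results of these data known. Named genes are a panel of core and tissue-restricted subunits, up to 5 called members in each direction by size of change or otherwise the 2 with the smallest p, and the 3 highest and 3 lowest in vehicle, and 1 of these members is counted in all sums but not reported by itself here. Others are said to have been picked after their values were seen, and the other members shown for DC-101 or for their shared sequence belong to these. Lists written from general knowledge were markers of hepatocytes, pericytes and smooth muscle, skeletal muscle, heart muscle, endothelium, macrophages, T cells, erythrocytes and brown fat, mitochondrially encoded genes, cytochrome c and c1, assembly factors of complexes III and IV, ATP synthase assembly and inhibitor genes, citric acid cycle genes and regulators of mitochondrial biogenesis.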

Additional observations from a re-analysis of the deposited data

Results flagged for a closer look

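In the 2 vehicle groups with 4 libraries, 83 values (named members and medians of complexes) were examined for a single library far from the other 3. Of these 8 were found, where chance gives about 1 in 20 groups for independent values. The 83 values come from the same libraries and members move together, so that the 8 cannot be set against that rate. In the dose experiment vehicle replicate 2 was the low one for Ndufb8 (log2 CPM 5.87) and Ndufv1 (6.53), both of complex I. In the DC-101 experiment the same replicate number was low for Cox5a (6.21), Ndufa12 (4.42) and Sdhb (6.13), while vehicle replicate 1 was high for Ndufv1 (7.02) and vehicle replicate 4 was low for Ndufv3 (5.38). Cox8b was high in vehicle replicate 4 of the DC-101 experiment (log2 CPM -0.77, from 11 counts, where the other vehicle libraries had none). With none in the others, any count in replicate 4 would have been flagged. In that library the summed level of 6 skeletal muscle markers was 322 CPM, against 1.45 to 4.18 CPM in the other libraries of the experiment, and Cox6a2 was at 1.79 CPM there. A difference of the low dose change between the experiments was called for 0 members by edgeR, DESeq2 and limma-voom (0 members unadjusted by edgeR). Over all genes edgeR called 0 and DESeq2 111. A difference in the members was thus not detected, which does not show that it was absent.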

How the results depend on the processing

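Over 10 counts of called members and 230 alternative fits, 203 kept the count within 1.5 times of the reported one. For the high dose against vehicle (3 members) the count was 1 with no filter, 0 with the hepatocyte covariate, 1 with the mitochondrially encoded covariate and 0 with only the groups compared. For the high against the low dose (1 member) it was 3 with DESeq2, 2 with the short gene covariate and 0 with only the groups compared. For the low dose over 3 experiments (0 members) it was 2 with DESeq2, 1 with the mitochondrially encoded covariate, 2 with the short gene covariate and 1 without the anti-PD1 experiment. DESeq2 also gave 3 for the low dose in the DC-101 experiment, 2 for DC-101 and 1 for anti-PD1, where edgeR gave 0. Over all genes the high dose count of 2582 was 5275 with DESeq2, 1332 with voom, 416 with no filter, 72 and 831 with the hepatocyte and mitochondrially encoded covariates, 282 with total count scaling and 4 with only the groups compared. The cause of these shifts was not tested.

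The replicate block gave 0 members for the high dose against vehicle, 0 for the high against the low dose, and 1 gene over all genes in each. Numbers did not pair the samples: deviations of same-numbered libraries correlated above 0.1 in 2 of 9 pairs where the high dose was tested, in 4 of 9 where DC-101 was and in 5 of 18 where anti-PD1 was. With the block Cox4i2 turned to 0.02 (main -0.09) for the low dose in the DC-101 experiment and to -0.16 (main 0.13) for anti-PD1.

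Leaving out 1 library gave 0 to 24 members for the high dose, 0 to 9 for high against low dose, 0 to 1 for the low dose over 3 experiments (1 without DC-101 experiment vehicle replicate 3), and 0 in each of the other fits. Other named members turned sign. Sdha in the low dose of the dose experiment (0.21) was -0.06 with the hepatocyte and -0.01 with the short gene covariate, and high against low dose (0.69) it was -0.06 with the mitochondrially encoded covariate. Cox4i2 under anti-PD1 was -0.30 with voom, -0.10 with the hepatocyte and -0.11 with the mitochondrially encoded covariate. Without 1 library, Cox4i2 ranged from -0.54 to 0.02 (high dose), -0.32 to 0.18 (low dose, DC-101 experiment), -1.73 to 0.32 (DC-101), -1.11 to 0.51 (anti-PD1) and -0.82 to 0.08 (combination). Ndufa4l2 ranged from -0.62 to 0.20 in the low dose of the DC-101 experiment. Sdha ranged from -0.01 to 0.11 (low dose) and -0.02 to 0.14 (combination) in the anti-PD1 experiment.

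Groups of 3 or 4 libraries limit all tests, and Cox4i2, Cox7a1 and Cox6a2 rest on few counts.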

Other observations

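Of 4 genes that assemble or inhibit ATP synthase, 1 was called at the high dose, where 2582 of 16525 genes were called. With only the groups compared in the fit 4 genes were called in all, and the value of Atpif1 in that fit is not given here. Atpif1, which blocks ATP hydrolysis by the enzyme, was at 77.2, 72.7, 77.7 and 82.4 CPM in vehicle, at 65.9, 82.6 and 70.1 CPM at the low dose and at 33.6, 45.4 and 47.8 CPM at the high dose. The 3 high dose libraries were below all others, and the fall held in replicates 2 and 3, where the members had medians of 0.02 and -0.16 against the vehicle mean. The log2 change was -0.86 (SE 0.14, edgeR adjusted p = 0.0209) against vehicle, -0.74 (SE 0.15, edgeR adjusted p = 0.0314) against the low dose, and -0.72 (SE 0.12, edgeR adjusted p = 0.0219) against vehicle without high dose replicate 1. For the low dose over 3 experiments it was 0.00 (SE 0.27, edgeR adjusted p = 0.997).

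Of 12 regulators of mitochondrial biogenesis, 1 was called at the high dose, where 2582 of 16525 genes were called. The median of the list was 0.04, and -0.12 without high dose replicate 1, with 4 of 12 above 0. With only the groups compared in the fit 4 genes were called in all, and the called regulator's value in that fit is not given here. Ppargc1a, a coactivator that raises the expression of mitochondrial genes, was at 1.10, 0.973, 1.05 and 0.554 CPM in vehicle, at 1.43, 1.85 and 2.01 CPM at the low dose and at 11.8, 4.28 and 2.38 CPM at the high dose. Every high dose library was above all others of the experiment, with replicate 1 the highest. Its log2 change was 2.78 (SE 0.54, edgeR adjusted p = 0.0285), and 1.86 (SE 0.37, edgeR adjusted p = 0.0325) without that replicate. Hepatocytes also express Ppargc1a, and the summed hepatocyte markers were highest in the same replicate. With DC-101 none of the 12 was called by edgeR, while 1 was higher and 4 lower at an unadjusted p under 0.05, the latter Ppargc1b (-0.77), Pprc1 (-0.26), Nrf1 (-0.31) and Yy1 (-0.22).

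Other marker lists gave these values at the high dose, where 2582 of 16525 genes were called. Of 3 skeletal muscle markers tested 0 were called by edgeR (0 unadjusted), of 4 erythrocyte markers 1 was lower, and the only tested heart muscle marker, Tnnt2, was lower (-3.12). The only tested brown fat marker, Elovl3, was not called (5.74, edgeR adjusted p = 0.0578). For the low dose over 3 experiments 5 of 6 endothelial markers were lower (median -1.24) and Elovl3 was higher (3.66).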
